A study of Homo sapiens with 6 samples.

Results

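The genes described here are 10 targets and regulators of the transcription factor NF-kB, measured by RNA-seq in HT-29 cells after knockdown (KD) of the long noncoding RNAs HOXA-AS3 or HOXB-AS3. They were chosen by name, with earlier results of these data known. The Entrez identifier of each row was matched to the symbols CXCL1, CXCL2, CXCL3, CXCL8, CCL20, NFKBIA, TNFAIP3, BIRC3, RELB and NFKB2. Each of the 10 matched a single row of the 27434 rows deposited. HT-29 is a human colorectal cancer cell line. It was transfected with a non-targeting siRNA pool (siNT), a pool against HOXA-AS3 (siHOXA-AS3) or a pool against HOXB-AS3 (siHOXB-AS3) and harvested at 48 hours, with 2 libraries of polyadenylated RNA per condition. All 6 libraries come from this line, and every condition, siNT included, was transfected at 10 nM according to the labels, while the study's methods give a higher dose. The labels number the libraries within each condition but do not tie them to separate cultures, so the p-values below measure the spread between these libraries, which may be technical.

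NF-kB is a family of dimeric transcription factors held in the cytoplasm by IkB proteins, which are destroyed when receptors such as those for TNF, interleukin-1 or microbial products activate the IKK kinases. In the slower, non-canonical branch the kinase NIK (MAP3K14) causes the NFKB2 product p100 to be processed to p52, which pairs with RELB. In the colon, epithelial cells answer bacteria and inflammatory cytokines through this pathway by secreting chemokines that draw neutrophils and lymphocytes. Several of its target genes encode its own inhibitors, so the pathway can dampen itself.

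The promoters of the members are shown first because NF-kB acts through short kB sites in them. Of the 10 members, 9 had a promoter in the RefSeq table used (GRCh38.p14, 250 bases before to 50 after the start of the gene), and RELB did not. The windows below lie upstream of the start site, and the capitals mark matches, on either strand, to the general NF-kB consensus of 10 bases or to the 9-base site GGAATTTCC, which may overlap each other. They run from position -110 to -41 relative to the start, except for BIRC3, where the window starts at -210.

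CXCL1 (chr4:73869283-73869352, plus strand): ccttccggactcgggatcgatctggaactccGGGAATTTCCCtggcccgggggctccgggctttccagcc
CXCL2 (chr4:74099236-74099305, minus strand): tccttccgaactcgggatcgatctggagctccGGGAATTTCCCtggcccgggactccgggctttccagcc
CXCL3 (chr4:74038730-74038799, minus strand): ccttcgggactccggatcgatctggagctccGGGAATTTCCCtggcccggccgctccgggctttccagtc
CXCL8 (chr4:73740459-73740528, plus strand): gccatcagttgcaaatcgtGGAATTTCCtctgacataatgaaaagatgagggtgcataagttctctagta
NFKBIA (chr14:35404790-35404859, minus strand): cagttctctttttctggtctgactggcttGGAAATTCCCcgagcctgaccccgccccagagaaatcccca
TNFAIP3 (chr6:137867149-137867218, plus strand): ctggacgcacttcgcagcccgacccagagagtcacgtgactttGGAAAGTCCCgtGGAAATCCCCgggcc
BIRC3 (chr11:102317274-102317368, plus strand): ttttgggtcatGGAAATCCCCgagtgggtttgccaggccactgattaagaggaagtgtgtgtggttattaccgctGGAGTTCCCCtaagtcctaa

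The windows of CXCL1, CXCL2 and CXCL3 carry the same run of capitals, which reads as the consensus on both strands, and over the 70 bases CXCL1 and CXCL3 are identical at 64. Their consensus matches end at position -69 in CXCL1 and CXCL3 and at -68 in CXCL2. CXCL8 holds the 9-base site only, at -91 to -83, and NFKBIA holds both motifs on the opposite strand. TNFAIP3 and BIRC3 have 2 consensus matches each. Over the whole promoters, 7 of the 9 members matched the consensus, including CCL20, and 5 of 9 held GGAATTTCC, while NFKB2 matched neither within this window. Among all 35116 promoters of the table, 11.3% matched the consensus and 0.461% held GGAATTTCC. A match describes the letters of the promoter and is no evidence of binding.

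Total expected counts ranged from 15998518 to 26263938 per library. HOXB-AS3, the target of 1 pool, was at 27.0 and 29.3 FPKM (fragments per kilobase of transcript, scaled to library size) in siNT and at 6.05 and 7.96 FPKM in siHOXB-AS3, a log2 fold change of -1.96 (SE 0.25, edgeR adjusted p = 0.0678), and it passed the threshold of 0.05 against siHOXA-AS3 (adjusted p = 0.0291). HOXA-AS3 was at 0.38 and 0.30 FPKM in siNT and at 0.13 and 0.19 FPKM in siHOXA-AS3 (log2 fold change -1.09, SE 0.40, adjusted p = 0.711). The siHOXA-AS3 libraries stand apart from each other: 1746 of the 13034 genes tested were at least 2-fold apart between them, against 328 genes in siNT and 282 genes in siHOXB-AS3, and their difference followed the GC content of the genes (Pearson r = 0.764 across genes, which are not independent replicates). The same r was -0.423 in siNT and 0.153 in siHOXB-AS3. Its sign depends on which library of a condition is numbered first. Of 8 markers of colon epithelium 7 had a mean over all 6 libraries of at least 1 FPKM, and CDX2 did not exceed 0.34 FPKM. Their sum was 3407 and 3653 FPKM in siNT, 4069 and 2774 FPKM in siHOXA-AS3 and 3362 and 3527 FPKM in siHOXB-AS3, most of it from KRT18 (1588 to 2558 FPKM). Of the 8, 6 had negative log2 fold changes in siHOXB-AS3 over siNT, with a median of -0.31. KRT18 was not lower, at 2093 and 2273 FPKM in siNT and 2233 and 2428 FPKM in siHOXB-AS3. The keratin KRT8 was at 373 and 472 FPKM in siNT and 469 and 468 FPKM in siHOXB-AS3. EPCAM, the epithelial adhesion molecule, was lower in siHOXB-AS3 (159 and 153 FPKM) than in siNT (289 and 278 FPKM; log2 fold change -0.81, SE 0.14, adjusted p = 0.101) and fell against siHOXA-AS3 (-0.82, adjusted p = 0.0471). The adhesion protein CDH1 was at -0.46 (SE 0.15, adjusted p = 0.281) against siNT and -0.65 (SE 0.15, adjusted p = 0.0919) against siHOXA-AS3, the latter called lower by DESeq2, and the keratin KRT19 was at -0.61 (SE 0.26, adjusted p = 0.411) against siNT. Leukocytes are a usual source of chemokines, and of their markers PTPRC, CD3E and ITGAM did not exceed 0.10 FPKM in any library and CSF1R was at 0. The monocyte marker CD14 was at 0.91 and 0.62 FPKM in siNT, 1.21 and 0.84 FPKM in siHOXA-AS3, and 0.56 and 0.42 FPKM in siHOXB-AS3 (against siHOXA-AS3 -1.01, SE 0.42, edgeR adjusted p = 0.266). The summed leukocyte list, 971 and 856 FPKM in siNT, 1075 and 1183 FPKM in siHOXA-AS3 and 780 and 728 FPKM in siHOXB-AS3, held 2 markers with a mean over all 6 libraries of at least 1 FPKM, CD68 and, for most of the sum, LYZ, which secretory epithelium also makes. Of 8 fibroblast and endothelial markers 5 were above 0 in any library, and their sum did not exceed 0.13 FPKM. The part of these marker levels in the results below was not tested.

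The chemokine genes were low in siNT cells and, for CXCL1, CXCL2 and CXCL3, several times higher after siHOXB-AS3. CXCL1, a ligand of the neutrophil receptor CXCR2, was at 1.53 and 0.82 FPKM in siNT, 2.24 and 1.52 FPKM in siHOXA-AS3, and 4.47 and 7.94 FPKM in siHOXB-AS3. CXCL2, a close relative that acts on the same receptor, was at 1.77 and 1.91 FPKM in siNT, 1.58 and 1.96 FPKM in siHOXA-AS3, and 3.49 and 6.75 FPKM in siHOXB-AS3. CXCL3, the remaining member of this trio, was at 2.68 and 2.71 FPKM in siNT, 2.49 and 2.40 FPKM in siHOXA-AS3, and 6.39 and 10.65 FPKM in siHOXB-AS3. For these 3 genes both siHOXB-AS3 libraries lay above the other 4, and the second siHOXB-AS3 library was the highest each time. By counts scaled to library size, both siHOXB-AS3 libraries lay above both siNT libraries for 30.9% of all genes tested. They lay above both siHOXA-AS3 libraries for 22.8%, and the share above all 4 was not computed. CXCL8, which encodes interleukin-8, gave another order. It was at 1.18 and 1.26 FPKM in siNT, 1.32 and 2.82 FPKM in siHOXA-AS3, and 1.53 and 3.14 FPKM in siHOXB-AS3. All 4 KD libraries of CXCL8 thus lay above siNT, but the KDs overlapped and each had 1 library near the siNT level. CCL20, the ligand of CCR6 on dendritic cells and lymphocytes, was barely detected, with 3 to 8 expected counts per library and 0.25 to 0.45 FPKM, and it did not pass the filter on low counts, so that 9 of the 10 members were tested.

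CXCL1, CXCL2 and CXCL3 lie close to each other in sequence, and RSEM divides reads that fit several of them, so that expected counts need not be whole (13.9 to 183 for CXCL1). Of the 50-base windows of the longest coding transcript, 5.73% of those of CXCL1, 9.24% of those of CXCL2 and 5.26% of those of CXCL3 also occur in another of the trio. Only exact matches were counted, and the share of reads whose division among the trio is uncertain was not measured. The sum of the trio does not depend on this division. Summed, the trio took 165 and 92 expected counts in siNT (6.28 and 5.75 CPM, counts scaled to the library total), 155 and 105 expected counts in siHOXA-AS3 (6.60 and 6.14 CPM), and 373 and 585 expected counts in siHOXB-AS3 (15.1 and 26.8 CPM). The sum was thus nearly equal in the 4 other libraries and higher in both siHOXB-AS3 libraries, which differ from each other. These transcripts also share a feature of short-lived mRNAs, the pentamer ATTTA. It was counted over the whole longest coding transcript, and the genes compared were not matched for base composition. CXCL2 held 10 copies, or 8.21 per 1000 bases, CXCL8 10 copies (5.87 per 1000 bases), CXCL3 7 copies (6.51 per 1000 bases), CCL20 4 copies (4.77 per 1000 bases) and CXCL1 5 copies (4.56 per 1000 bases), against a median of 1.03 per 1000 bases over 11992 genes. Of the regulators, BIRC3 held 3.27 copies per 1000 bases, NFKBIA 1.93, TNFAIP3 1.48, NFKB2 0.59 and RELB none.

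**Figure D1:**
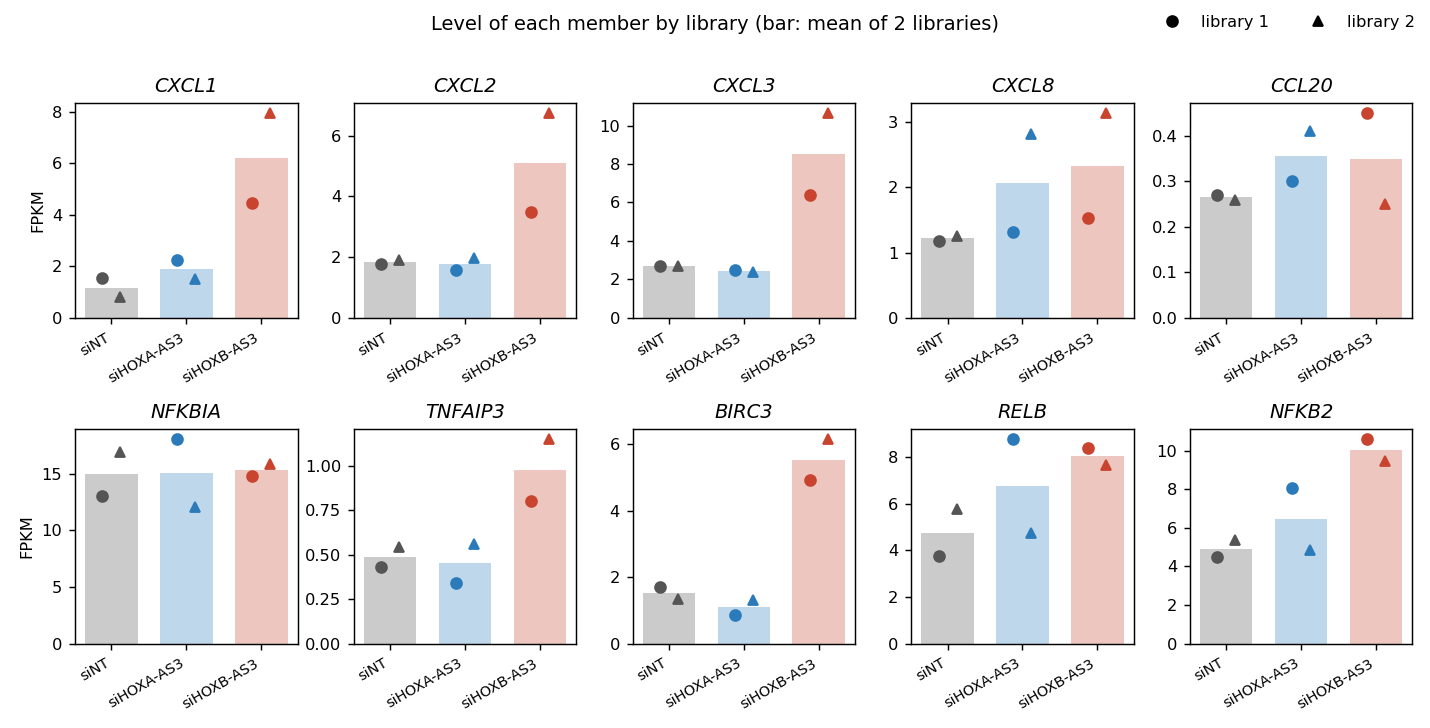
Level of each member in FPKM (vertical axes, each starting at 0) in siNT, siHOXA-AS3 and siHOXB-AS3; circles and triangles are the 2 libraries of a condition and bars their mean. In CXCL1, CXCL2, CXCL3, TNFAIP3, BIRC3 and NFKB2 both siHOXB-AS3 libraries are above the other 4, while NFKBIA stays between 12.1 and 18.1 FPKM in all libraries and CCL20 below 0.5 FPKM. Of all genes tested, 30.9% had both siHOXB-AS3 libraries above both siNT libraries in log2 CPM, and 22.8% above both siHOXA-AS3 libraries. The share above all 4 was not computed.

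Of the regulators, 4 genes had both siHOXB-AS3 libraries above both siNT libraries, as did 30.9% of all genes tested on the log2 CPM scale. The conditions of NFKBIA overlapped. BIRC3, which encodes the ubiquitin ligase cIAP2 of the TNF receptor complex, was at 1.70 and 1.34 FPKM in siNT, 0.86 and 1.32 FPKM in siHOXA-AS3, and 4.91 and 6.16 FPKM in siHOXB-AS3. NFKB2, the precursor of p52, was at 4.49 and 5.36 FPKM in siNT, 8.08 and 4.83 FPKM in siHOXA-AS3, and 10.6 and 9.46 FPKM in siHOXB-AS3. RELB, the partner of p52, was at 3.75 and 5.76 FPKM in siNT, 8.77 and 4.72 FPKM in siHOXA-AS3, and 8.40 and 7.65 FPKM in siHOXB-AS3. For RELB, in contrast to BIRC3 and NFKB2, the first siHOXA-AS3 library was the highest of all 6. TNFAIP3, which encodes A20, a ubiquitin-editing inhibitor of the pathway, was at 0.43 and 0.54 FPKM in siNT, 0.34 and 0.56 FPKM in siHOXA-AS3, and 0.80 and 1.15 FPKM in siHOXB-AS3. NFKBIA, which encodes IkB-alpha, the inhibitor rapidly resynthesized after canonical activation, was at 13.1 and 16.9 FPKM in siNT, 18.1 and 12.1 FPKM in siHOXA-AS3, and 14.8 and 15.9 FPKM in siHOXB-AS3. For NFKBIA the spread within siNT and within siHOXA-AS3 enclosed both siHOXB-AS3 libraries.

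The question of whether the pool against HOXB-AS3 changed these genes was addressed by testing them among all 13034 genes that passed the filter. The test was edgeR's quasi-likelihood test on rounded expected counts, in a fit of all 6 libraries with Benjamini-Hochberg adjustment. A single pool targeted each lncRNA, so loss of the RNA and other effects of its pool cannot be told apart. All 9 log2 fold changes of siHOXB-AS3 over siNT were positive, with a median of 1.07 (all genes tested: -0.01) and of 1.62 for the 4 chemokines tested. CXCL1 was 5.29-fold higher (log2 fold change 2.40, SE 0.44, 95% interval 1.35 to 3.45, adjusted p = 0.112), BIRC3 3.60-fold (1.85, SE 0.32, interval 1.09 to 2.60, adjusted p = 0.101), CXCL3 3.25-fold (1.70, SE 0.32, interval 0.95 to 2.45, adjusted p = 0.113) and CXCL2 2.90-fold (1.53, SE 0.38, interval 0.63 to 2.43, adjusted p = 0.181). NFKB2 was 2.10-fold higher (log2 fold change 1.07, SE 0.28, interval 0.40 to 1.74, adjusted p = 0.199) and TNFAIP3 2.09-fold (1.06, SE 0.36, interval 0.21 to 1.91, adjusted p = 0.294). The intervals, which are not adjusted for the number of genes, included 0 for CXCL8 (0.98, -0.18 to 2.15, adjusted p = 0.500), RELB (0.81, -0.02 to 1.64, adjusted p = 0.432) and NFKBIA (0.08, -0.53 to 0.70, adjusted p = 0.940).

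None of the 9 members tested therefore passed the adjusted threshold of edgeR in siHOXB-AS3 against siNT, where 0.0307% of all genes were called higher. At an unadjusted p below 0.05, 6 of the 9 were higher (CXCL1, CXCL2, CXCL3, TNFAIP3, BIRC3 and NFKB2), against 4.42% of all genes. On the log2 CPM scale, 8 of the 9, all but NFKBIA, had both siHOXB-AS3 libraries above both siNT libraries, against 30.9% of all genes. The members were chosen with earlier results of these data known, so these shares describe them and are no independent support. The call depended on the test and on which libraries entered the estimate of the spread. DESeq2, the tool the study's methods name, called 5 members higher (CXCL1, CXCL2, CXCL3, BIRC3 and NFKB2, adjusted p from 8.33e-06 for BIRC3 to 0.0480 for CXCL2), against 0.968% of genes. When the edgeR fit held no siHOXA-AS3 library, 8 of the 9 members, all but NFKBIA, were called higher, with adjusted p from 1.41e-07 for BIRC3 to 0.0306 for CXCL8, against 11.2% of genes. The same number was called without the first siHOXA-AS3 library (11.1% of genes) and without the second (10.9% of genes). With a GC trend removed from each library, 6 members were called higher (CXCL1, CXCL2, CXCL3, BIRC3, RELB and NFKB2), against 5.86% of genes. Without any 1 of the siNT or siHOXB-AS3 libraries no member was called, in fits that called 0 to 1 gene of all tested, so this count says nothing about the members. In bulk RNA, more cells making a transcript and more transcript per cell cannot be told apart.

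**Figure D2:**
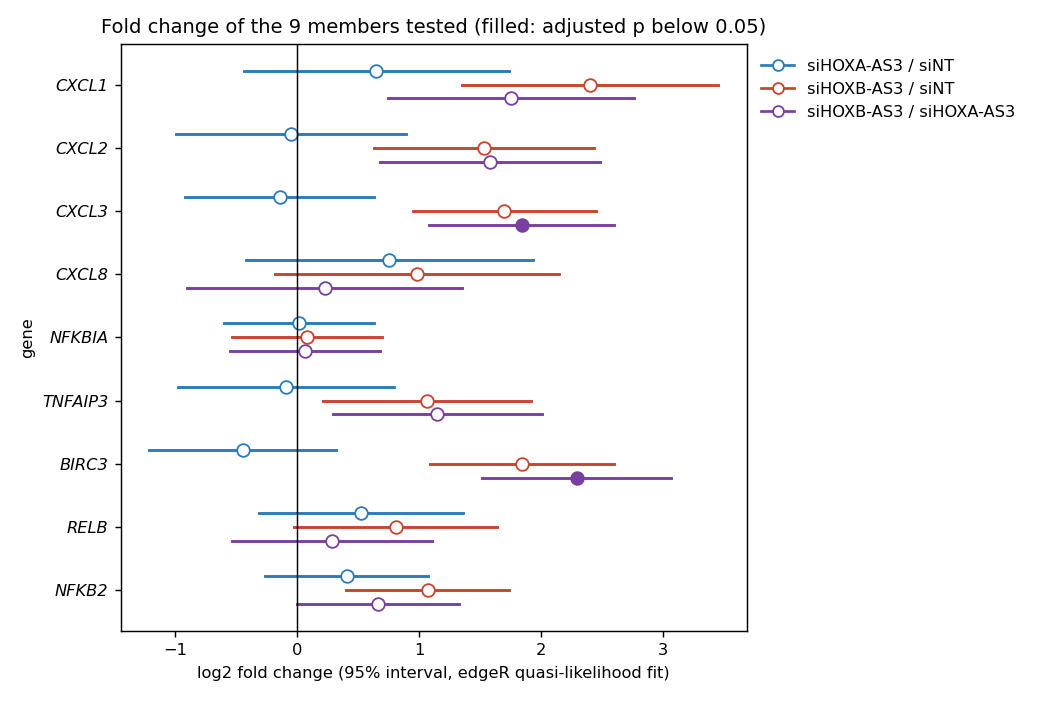
log2 fold change (horizontal axis) of the 9 members tested for siHOXA-AS3 over siNT, siHOXB-AS3 over siNT and siHOXB-AS3 over siHOXA-AS3, with the 95% interval of the edgeR fit; filled points have an adjusted p below 0.05. Only CXCL3 and BIRC3 in siHOXB-AS3 over siHOXA-AS3 are filled, and NFKBIA lies near 0 in all 3 comparisons.

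Set directly against the other KD, 2 members rose in siHOXB-AS3. BIRC3 was 4.90-fold higher than in siHOXA-AS3 (log2 fold change 2.29, SE 0.33, interval 1.52 to 3.07, edgeR adjusted p = 0.0373) and CXCL3 3.59-fold higher (1.84, SE 0.32, interval 1.09 to 2.60, adjusted p = 0.0492). These calls compare with 0.629% of all genes called higher. CXCL1 (1.75, SE 0.43, adjusted p = 0.100) and CXCL2 (1.58, SE 0.38, adjusted p = 0.0995) missed the threshold, as did TNFAIP3 (1.15, SE 0.36, adjusted p = 0.163) and NFKB2 (0.66, SE 0.28, adjusted p = 0.269). CXCL8, RELB and NFKBIA had log2 fold changes of 0.23, 0.29 and 0.07 with intervals of -0.90 to 1.36, -0.54 to 1.11 and -0.55 to 0.68. At an unadjusted p below 0.05, 6 of the 9 were higher, against 7.9% of genes, and for the same number both siHOXB-AS3 libraries were above both siHOXA-AS3 libraries, against 22.8% of genes. DESeq2 called CXCL1, CXCL2, CXCL3 and BIRC3 higher, against 2.31% of genes, and with a GC trend removed edgeR called these 4, TNFAIP3 and NFKB2 higher, against 12.4% of genes. With only the siHOXA-AS3 and siHOXB-AS3 libraries in the fit, no member was called and 2 of 12813 genes were. Without any 1 siNT or siHOXB-AS3 library no member was called either, in fits that called 0 to 16 genes of all tested, so these losses are not particular to BIRC3 and CXCL3.

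After HOXA-AS3 KD, no member passed the test against siNT, by edgeR or by DESeq2. The median log2 fold change was 0.02 over the 9 members and 0.30 over the 4 chemokines (all genes tested: 0.01), and the smallest adjusted p was 0.948, for CXCL8. No gene at all was called higher (0%), none of the members had an unadjusted p below 0.05, against 2.75% of genes higher at that p, and the log2 fold changes of the members ran from -0.45 for BIRC3 to 0.76 for CXCL8. Both siHOXA-AS3 libraries were above both siNT libraries for CXCL1 and CXCL8 on the log2 CPM scale, against 12.5% of genes, and below for CXCL3, against 16.1% of genes. The intervals still allow sizeable differences, from -0.44 to 1.74 for CXCL1 and from -1.21 to 0.32 for BIRC3. The comparison shares the siNT libraries with the other KD.

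The siHOXA-AS3 libraries also differed from each other in the members. The log2 CPM in the first library minus the second was 0.88 for RELB (64.5% GC), 0.74 for NFKB2 (62.4% GC) and 0.58 for NFKBIA (57.6% GC), but -1.07 for CXCL8 (37.1% GC) and -0.73 for BIRC3 (38.7% GC). The 3 members richest in GC were thus higher in the first library and the 2 tested members poorest in GC in the second. Members between them did not follow one order, with 0.53 for CXCL1 (50.9% GC), 0.04 for CXCL3 (51.9% GC), -0.69 for TNFAIP3 (51.3% GC) and -0.30 for CXCL2 (57.1% GC). Without the first siHOXA-AS3 library, CXCL8 was called higher against siNT (log2 fold change 1.22, edgeR adjusted p = 0.0161, 15% of genes called higher), and RELB and NFKB2 were at 0.02 and -0.01. Without the second, RELB (0.92, adjusted p = 0.00379) and NFKB2 (0.74, adjusted p = 0.00364) were called higher (7.91% of genes) and BIRC3 lower (-0.86, adjusted p = 0.0157; 9.95% of genes), while CXCL8 was at 0.13. With a GC trend removed from each library, no member was called in siHOXA-AS3 against siNT, where 530 of the 13034 genes (4.07%) were called in either direction. In siHOXB-AS3 the trio and CXCL8 differed between libraries by -0.74 to -1.02, and RELB and NFKB2 by 0.13 and 0.15. In siNT, RELB differed by -0.63 and BIRC3 by 0.43, with signs that depend on which library is numbered first.

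**Figure D3:**
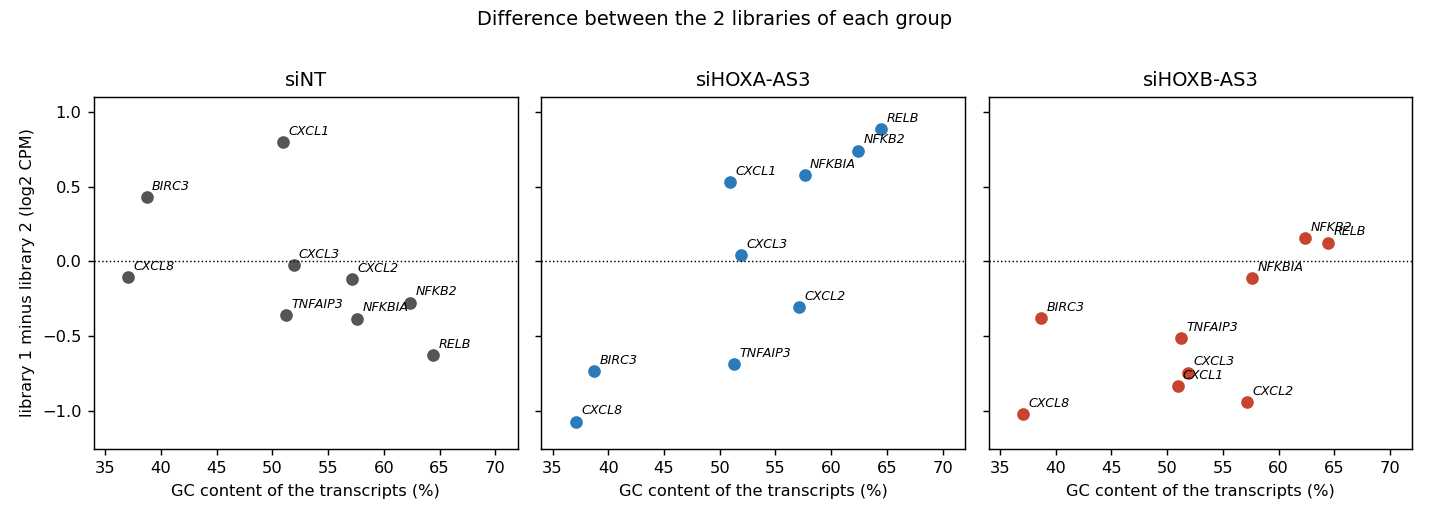
Difference between the 2 libraries of each condition in log2 CPM (vertical axis) against the GC content of the transcripts (horizontal axis, percent) for the 9 members tested. In siHOXA-AS3 the members run from -1.07 for CXCL8 at 37.1% GC to 0.88 for RELB at 64.5% GC.

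The order of the members by FPKM changed between conditions. In siNT, NFKBIA was highest (14.98 ± 2.71 FPKM, SD, n = 2), followed by NFKB2 (4.93 ± 0.62) and RELB (4.76 ± 1.42), whose libraries overlapped, then CXCL3 (2.70 ± 0.02), CXCL2 (1.84 ± 0.10), BIRC3 (1.52 ± 0.25), CXCL8 (1.22 ± 0.06) and CXCL1 (1.18 ± 0.50), the last pair overlapping, and TNFAIP3 (0.49 ± 0.08) and CCL20 (0.27 ± 0.01). In siHOXB-AS3, NFKBIA was still highest (15.3 ± 0.75 FPKM, SD, n = 2), but NFKB2 (10.0 ± 0.81), CXCL3 (8.52 ± 3.01), RELB (8.03 ± 0.53), CXCL1 (6.21 ± 2.45), BIRC3 (5.54 ± 0.88) and CXCL2 (5.12 ± 2.31) each overlapped the next in this order. CXCL8 (2.34 ± 1.14), TNFAIP3 (0.98 ± 0.25) and CCL20 (0.35 ± 0.14) did not overlap their neighbours. In siHOXA-AS3 the order from NFKBIA (15.1 ± 4.26 FPKM) through RELB (6.75 ± 2.86), NFKB2 (6.46 ± 2.30), CXCL3 (2.45 ± 0.06), CXCL8 (2.07 ± 1.06), CXCL1 (1.88 ± 0.51) and CXCL2 (1.77 ± 0.27) to BIRC3 (1.09 ± 0.33), TNFAIP3 (0.45 ± 0.16) and CCL20 (0.36 ± 0.08) had overlaps between RELB and NFKB2, among the 4 chemokines from CXCL3 to CXCL2 and between TNFAIP3 and CCL20.

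In siHOXB-AS3 over siNT, the other genes of the pathway gave medians closer to that of all genes than the members did. Members and lists were chosen with earlier results of these data known, and the part of that choice in this contrast was not tested. In this comparison 1586 of all 13034 genes had an unadjusted p below 0.05, in either direction. In none of the 8 lists of other pathway genes did edgeR call a gene in any of the 3 comparisons. Among the other subunits and IkB proteins, all 8 were tested and the median log2 fold change for HOXB-AS3 KD over siNT was 0.28, with 7 of 8 positive. NFKBIZ, an atypical nuclear IkB protein needed for secondary responses, was at 14.6 and 12.8 FPKM in siNT and 20.1 and 21.7 FPKM in siHOXB-AS3 (0.66, SE 0.18, adjusted p = 0.203), the only gene of this list with an unadjusted p below 0.05. REL, the lymphoid subunit c-Rel, had a log2 fold change of 0.41 (SE 0.21), NFKBIB of 0.46 (SE 0.29) and NFKBID of -0.39 (SE 0.28). DESeq2 called none of the 8.

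Among 22 genes of the IKK complex and the signalling adaptors, all tested, the median log2 fold change in siHOXB-AS3 was -0.05. At an unadjusted p below 0.05, 1 gene was higher and 2 lower. Of all 13034 genes 4.42% were higher at that p, and 1586 passed it in either direction. The higher gene was MAP3K14, the kinase NIK that starts the processing of the NFKB2 product. It was at 1.84 and 1.95 FPKM in siNT, 1.90 and 1.67 FPKM in siHOXA-AS3, and 4.15 and 3.62 FPKM in siHOXB-AS3 (2.12-fold, log2 fold change 1.08, SE 0.22, edgeR adjusted p = 0.114; against siHOXA-AS3 1.16, adjusted p = 0.0547), and DESeq2 called it in both comparisons. The lower ones were the adaptor kinase of interleukin-1 and Toll-like receptors, IRAK1 (-0.68, SE 0.24), and the TNF receptor adaptor RIPK1 (-0.45, SE 0.18). IRAK4, the kinase upstream of IRAK1, was at 0.50 (SE 0.23) in siHOXA-AS3 and at -0.25 (SE 0.23) in siHOXB-AS3. DESeq2 also called MYD88, the adaptor of Toll-like receptors, higher against siHOXA-AS3 (0.80, SE 0.23, edgeR adjusted p = 0.132).

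Of 21 receptors and ligands upstream of NF-kB, 10 were tested. In siHOXB-AS3 2 were higher and 3 lower at an unadjusted p below 0.05, against 4.42% of all genes higher and 1586 of 13034 in either direction. IL18, an epithelial cytokine of the interleukin-1 family, was at 22.7 and 21.5 FPKM in siNT, 30.02 and 38.07 FPKM in siHOXA-AS3, and 38.0 and 39.4 FPKM in siHOXB-AS3. All 4 KD libraries of IL18 were above siNT, with log2 fold changes of 0.63 in siHOXA-AS3 (SE 0.20, adjusted p = 0.641) and 0.86 in siHOXB-AS3 (SE 0.20, adjusted p = 0.154). TNFSF15, a TNF-like ligand, had log2 fold changes of 0.78 (SE 0.20) in siHOXB-AS3 and 0.19 (SE 0.20) in siHOXA-AS3. TNFSF10, the death ligand TRAIL, was lower in both KDs (-1.04, SE 0.34, in siHOXA-AS3 and -1.08, SE 0.34, in siHOXB-AS3). So was TLR3, a receptor for double-stranded RNA (-0.96, SE 0.33, in siHOXA-AS3 and -0.79, SE 0.32, in siHOXB-AS3). TLR4, the receptor for bacterial lipopolysaccharide, was at 0.33 and 0.18 FPKM in siNT and 0.06 and 0.08 FPKM in siHOXB-AS3 (-1.85, SE 0.55). None of these passed the adjusted threshold of edgeR, and DESeq2 called IL18 in siHOXB-AS3 against siNT and TLR4 in siHOXB-AS3 against siHOXA-AS3.

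Of 29 other NF-kB target genes, 17 were tested, with medians of 0.08 in siHOXB-AS3 and 0.27 in siHOXA-AS3. In siHOXB-AS3 3 were higher and 1 lower at an unadjusted p below 0.05, against 4.42% of all genes higher and 1586 of 13034 in either direction. GADD45B, a stress-response gene, was at 3.25 and 3.48 FPKM in siNT, 3.81 and 3.39 FPKM in siHOXA-AS3, and 8.02 and 7.19 FPKM in siHOXB-AS3 (1.23, SE 0.23, adjusted p = 0.112). PTGS2, which encodes cyclooxygenase-2, was at 0.86 and 0.83 FPKM in siNT, 0.97 and 1.26 FPKM in siHOXA-AS3, and 1.73 and 2.52 FPKM in siHOXB-AS3 (1.37, SE 0.29, adjusted p = 0.138). These were the only genes of the list that DESeq2 called against siNT in siHOXB-AS3. The iron-binding protein LCN2 and the proteoglycan SDC4 gave other patterns. LCN2 was at 990 and 953 FPKM in siNT, 543 and 403 FPKM in siHOXA-AS3 (-1.04, SE 0.21, adjusted p = 0.465, called lower by DESeq2), and 794 and 589 FPKM in siHOXB-AS3 (-0.44, SE 0.21). SDC4 had log2 fold changes of 0.62 (SE 0.19) in siHOXA-AS3 and -0.47 (SE 0.19) in siHOXB-AS3. Against siHOXA-AS3, DESeq2 called GADD45B higher and SDC4 (-1.09, SE 0.19, edgeR adjusted p = 0.0521) and the early response gene IER3 (-0.89, SE 0.21, edgeR adjusted p = 0.0951) lower.

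The remaining lists gave no call by edgeR either. Of 18 other chemokines and chemokine receptors, 7 were tested, with a median of 0.07 in siHOXB-AS3, and DESeq2 called none. The receptor CXCR4 was at 4.88 and 5.70 FPKM in siNT and 2.83 and 2.41 FPKM in siHOXB-AS3 (-0.96, SE 0.24, adjusted p = 0.181). CXCL11, an interferon-induced chemokine, was at 2.31 FPKM in the second siHOXA-AS3 library and at 0.38 to 0.60 FPKM in the other 5. CXCL16 was at 10.2 and 10.0 FPKM in siNT and 14.3 and 12.4 FPKM in siHOXB-AS3 (0.44, SE 0.22), and CCL15, whose row joins it with other genes, at 58.0 and 60.6 FPKM in siNT and 60.9 and 59.6 FPKM in siHOXB-AS3. Of 11 deubiquitinases and feedback inhibitors 9 were tested, with a median of -0.22 in siHOXB-AS3. NLRC5 was at 0.13 and 0.19 FPKM in siNT and 0.05 and 0.03 FPKM in siHOXB-AS3. COMMD1, which promotes removal of RELA from chromatin, was at 7.09 and 3.92 FPKM in siNT, 8.14 and 8.95 FPKM in siHOXA-AS3, and 3.79 and 2.64 FPKM in siHOXB-AS3, and DESeq2 called it lower in siHOXB-AS3 against siHOXA-AS3 (-1.34, SE 0.36, edgeR adjusted p = 0.1204). The deubiquitinase OTUD7B and the A20 partner TAX1BP1 had log2 fold changes of -0.22 (SE 0.20) and 0.14 (SE 0.19).

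Regulators of the decay of AU-rich mRNAs act on transcripts such as those of the chemokines, and all 6 listed were tested, with a median of -0.11 in siHOXB-AS3 and no call by edgeR or DESeq2. ZFP36L2, a decay factor that binds AU-rich elements, was at 27.8 and 25.6 FPKM in siNT and 18.2 and 17.1 FPKM in siHOXB-AS3 (-0.55, SE 0.16, adjusted p = 0.231), the only one of the list with an unadjusted p below 0.05. Its relatives ZFP36L1 and ZFP36 were at -0.27 (SE 0.16) and -0.03 (SE 0.24), and HNRNPD, the AU-rich element binding protein AUF1, at 0.41 (SE 0.31). A list of 8 genes for the sensing of double-stranded RNA, a route that can activate NF-kB, was tested in full. It held sensors, the adaptors MAVS and TICAM1 and the transcription factors IRF3 and IRF7. The median was -0.19 in siHOXB-AS3 and 0.05 in siHOXA-AS3. DHX58 was at 0.90 and 1.47 FPKM in siNT and 0.47 and 0.55 FPKM in siHOXB-AS3 (-1.16, SE 0.46, adjusted p = 0.371), and DDX58, IFIH1 and MAVS were at -0.15 (SE 0.26), 0.09 (SE 0.34) and -0.24 (SE 0.20). DESeq2 called none of these 8.

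**Figure D4:**
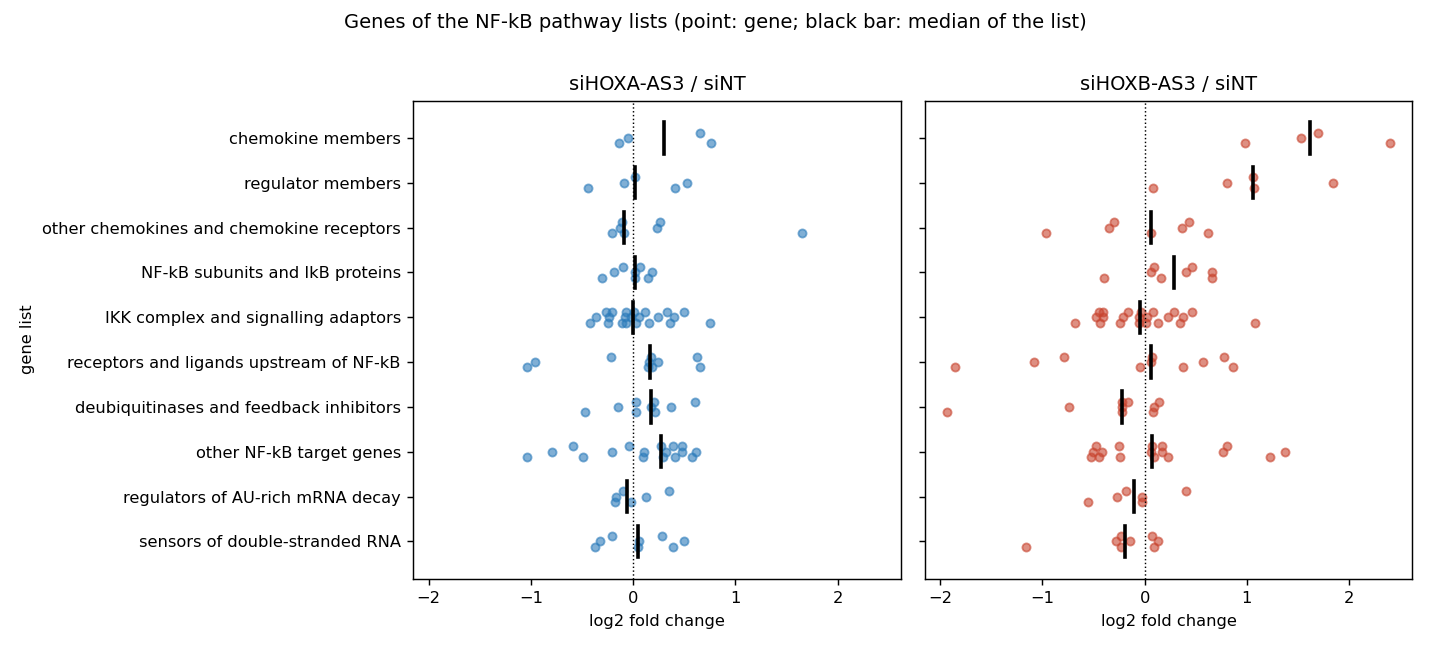
log2 fold change (horizontal axes) of each gene tested in the lists of the NF-kB pathway (rows) for siHOXA-AS3 over siNT on the left and siHOXB-AS3 over siNT on the right; points are genes and black bars the median of a list. In siHOXB-AS3 the medians of the member lists are 1.62 and 1.06, and those of the other lists lie between -0.22 and 0.28.

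The pattern of the chemokines over the 6 libraries was also compared with that of 4520 genes outside the lists whose log2 CPM spanned at least 1. The genes with the highest Pearson r to the mean log2 CPM of the 4 chemokines were ATF3 (0.986), CBARP (0.9751), MYC (0.971), CHKA (0.9698) and RGCC (0.969), a description over 6 libraries that fall into 3 conditions and differ in depth. ATF3, a stress-induced transcription factor, was at 26.3 and 27.8 FPKM in siNT, 29.3 and 29.1 FPKM in siHOXA-AS3, and 41.6 and 56.5 FPKM in siHOXB-AS3. MYC, the growth-promoting transcription factor, was at 105 and 97.6 FPKM in siNT, 126 and 122 FPKM in siHOXA-AS3, and 191 and 226 FPKM in siHOXB-AS3. Both genes were highest in the second siHOXB-AS3 library, as was the chemokine mean they were picked to follow. This likeness comes with the selection and is no separate result. The most opposite were NUAK1 (-0.996), APOLD1 (-0.994), PITX1-AS1 (-0.993), SUMF1 (-0.992) and SH3BP5-AS1 (-0.988). SUMF1, an enzyme that activates sulfatases, was at 3.92 and 4.04 FPKM in siNT, 3.49 and 3.23 FPKM in siHOXA-AS3, and 2.04 and 1.52 FPKM in siHOXB-AS3.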

How the data were processed

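RNA-seq of HT-29 cells covered 3 siRNA conditions with 2 libraries each, and groups were taken from the sample labels. Libraries were made with the SENSE mRNA kit and quantified by the authors with RSEM on RefSeq genes. The submitters' processing notes name hg19. The aligner, the RSEM version and whether counting used strand: not given in the sources used here. The labels give 10 nM siRNA and an RNeasy kit, and the study's methods another dose and reagent. For each library the authors deposited expected counts, which are estimated fragments per gene without normalization, FPKM values, scaled by gene length and library size, and TPM values, which were not used for any result. Rows joining several genes (627 of 27434) held 6.02% to 6.62% of the counts, and rows without a symbol at most 0.0433%. No 2 libraries were identical (chi-square per degree of freedom at least 7.07).

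Expected counts were rounded and tested with edgeR 4.0.16 under R 4.3.3 (filterByExpr with a minimum count of 10, TMM, robust quasi-likelihood fit of all 6 libraries, Benjamini-Hochberg adjustment over 13034 genes, threshold 0.05). The log2 CPM values used a prior count of 2. Levels are FPKM. The calling step was tested on simulated data with 100 genes changed 2-fold and 100 changed 4-fold. For siHOXB-AS3 against siNT, edgeR recovered 22% of the 2-fold and 82% of the 4-fold changes, with 4 false calls. DESeq2 recovered 43% and 83%, with 22 false calls. For siHOXA-AS3 against siNT, edgeR recovered 33% and 80% with 11 false calls, and DESeq2 45% and 81% with 24. Changes near 2-fold were thus often missed. Alternatives were DESeq2 1.42.0, RLE size factors, library totals, no filter, a mean FPKM of at least 1, only the groups compared, a replicate block, a lowess trend on GC content removed per library (known for 96.8% of genes), both together, unrounded counts, limma-trend 3.58.1 on log2(FPKM + 0.1) and log2(FPKM + 1), and each library left out in turn. An adjusted p that DESeq2 gave as missing stayed missing.

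Genes were named by a rule: all members, the targeted lncRNAs, every gene of a list called by edgeR, up to 4 genes per pathway list with the smallest unadjusted p in either KD, and the 5 most and 5 least similar genes outside the lists. CD14, CDH1, KRT8, KRT18, KRT19, MYD88, ICAM1, IER3 and TLR3 were named in addition, after their values were seen. The members and lists were chosen with earlier results of these data known. Promoters came from the RefSeq table for GRCh38.p14, and transcripts and GC content from GENCODE v29 (GRCh38). No coordinates were converted between builds. The value of 1 marker gene is not reported here.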

Additional observations from a re-analysis of the deposited data

How the results depend on the processing

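Directions of the members in siHOXB-AS3 against siNT and against siHOXA-AS3 held under every alternative except those named here, while the calls did not. In siHOXB-AS3 against siNT, where the test called 0 members, DESeq2 called 5, no filter 5, only the groups compared 8, the GC trend removed 6, and the GC trend removed with a replicate block 7; leaving out 1 library gave 0 to 8, with 8 without either siHOXA-AS3 library and 0 without any of the other 4. Against siHOXA-AS3, where 2 were called, DESeq2 called 4, no filter 4, a mean FPKM of at least 1 and limma with either pseudocount 1 each, only the groups compared 0, a replicate block 0, and the GC trend removed 6 with or without the block; leaving out 1 library gave 0 to 6, with 6 and 5 without the first and the second siHOXA-AS3 library and 0 without any other. In siHOXA-AS3 against siNT, leaving out 1 library gave 0 to 3, and every alternative with all libraries gave 0. A mean FPKM of at least 1 dropped TNFAIP3 and moved the median log2 fold change of the members to 0.22 in siHOXA-AS3 and 1.28 in siHOXB-AS3 against siNT, through the fewer genes tested. On log2(FPKM + 1), which understates low genes, the medians of the chemokines in siHOXB-AS3 were 1.19 against siNT and 1.19 against siHOXA-AS3, and that of the members against siHOXA-AS3 was 0.60. The median in siHOXA-AS3 turned to -0.0078 and -0.0064 with limma at the pseudocounts 0.1 and 1, as did NFKBIA with the same values, and CXCL2 turned to 0.015 with the GC trend removed; the cause was not tested. Leaving out 1 library gave medians of -0.11 to 0.22 for the members and 0.01 to 0.31 for the chemokines in siHOXA-AS3, of 0.94 to 1.42 and 1.13 to 1.98 in siHOXB-AS3 against siNT, and of 0.86 to 1.51 and 1.15 to 2.05 against siHOXA-AS3. Single members changed sign when a library was left out: in siHOXA-AS3, CXCL2 ranged from -0.20 to 0.11, NFKBIA from -0.30 to 0.29, TNFAIP3 from -0.46 to 0.25 and NFKB2 from -0.0081 to 0.74; in siHOXB-AS3 against siNT, NFKBIA ranged from -0.10 to 0.29. Against siHOXA-AS3, CXCL8 ranged from -0.39 to 0.85, NFKBIA from -0.20 to 0.39 and RELB from -0.090 to 0.81. With 1 library left in a group, the spread came from the other groups.

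Deviations of same-numbered libraries correlated at -0.35 between siNT and siHOXA-AS3, -0.14 between siNT and siHOXB-AS3 and 0.15 between siHOXA-AS3 and siHOXB-AS3. The differences within a condition also correlated with GC content, at -0.423 in siNT, 0.764 in siHOXA-AS3 and 0.153 in siHOXB-AS3. Whether the replicate numbers pair the libraries apart from GC content was not tested. The replicate block called 0 members in each comparison, and 10 genes of all tested in siHOXB-AS3 against siHOXA-AS3, where the fit without it called 204. Counts of genes called among all tested also moved, from 0 with the test used here to 56 with DESeq2 and 530 with the GC trend removed in siHOXA-AS3, from 8 to 331 and 1742 in siHOXB-AS3 against siNT, and from 204 to 770 and 3307 against siHOXA-AS3. Low counts (3 to 8 for CCL20, 32 to 109 for CXCL8, and 42.0 and 13.9 for CXCL1 in siNT) limit what can be seen. The log2 fold change of CXCL1 in siHOXB-AS3 over siNT ranged from 1.70 to 2.93 over the alternatives.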
